A study of Petunia x hybrida with 12 samples.

Results

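The genes described here are the O-glycosyl hydrolases of cell wall carbohydrates in petunia roots, enzymes that cut the bonds between the sugars of wall polymers and of sugar conjugates. They were chosen by annotation alone: a gene model was a member when its GO annotation consisted of exactly the terms for hydrolase activity on O-glycosyl compounds, carbohydrate metabolic process and catalytic activity, which held for 163 of the 32928 gene models. By the enzyme named in their descriptions, 59 were beta-1,3-glucanases, 35 beta-glucosidases, 20 endoglucanases, 16 mannanases or beta-mannosidases, 14 chitinases, 7 alpha- or beta-galactosidases and 2 family 5 cellulases, and 10 named another enzyme or none. RNA was sequenced from roots of 2 lines of *Petunia x hybrida*, the wild type W115 and the mutant *ram1-2* (called *ram1*), which carries a defect in the GRAS transcription factor gene *RAM1*. Plantlets of 4 weeks were potted and either inoculated with the arbuscular mycorrhizal (AM) fungus *Rhizophagus irregularis* MUCL 43204 or left as controls, and roots were harvested 15 days after inoculation. This gave 4 groups of 3 replicate plants each: wild type control, wild type mycorrhizal, *ram1* control and *ram1* mycorrhizal. Nurse plants were used to bring the fungus into both lines, and every group was given the same weekly nutrient solution. The study reported a somewhat lower mean colonization in mycorrhizal *ram1* than in mycorrhizal wild type roots, with overlapping spreads. It also reported a smaller share of fungal reads in *ram1*. The part of fungal load in the differences between the lines was not tested.

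Plant cell walls hold cellulose, a chain of beta-1,4-linked glucose, hemicelluloses such as mannans, and callose, a beta-1,3-glucan deposited at plasmodesmata and at sites of attack. Endoglucanases, mannanases and beta-1,3-glucanases cut inside these chains, while beta-glucosidases, beta-mannosidases and galactosidases release sugars from their ends or from small glycosides. Chitinases cut chitin, which plants lack and which forms the wall of fungi. In AM roots the fungus crosses walls, grows between cells and forms arbuscules inside cortical cells, so enzymes acting on either partner's wall are found at the contact zone.

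The libraries held 7152267 to 13391147 gene reads. The *RAM1* transcript (Peaxi162Scf00420g00650.1) was at 0.0813, 0.335 and 0.235 CPM (reads scaled to library size by TMM factors) in wild type controls and at 115.2, 108.6 and 128.6 CPM in mycorrhizal wild type roots. In *ram1* it was at 0.328, 0.231 and 0.148 CPM in controls and at 6.07, 8.63 and 8.32 CPM in mycorrhizal roots, so the transcript was still read in the mutant after inoculation. The summed level of 6 genes that mark cells with arbuscules was 1514 to 1701 CPM in mycorrhizal wild type roots and 16.6 to 37.8 CPM in mycorrhizal *ram1* roots against 9.95 to 48.5 and 2.85 to 7.12 CPM in the respective controls. This sum moved with the inductions described below in the wild type, and its part in them was not tested. Transcripts of green shoot tissue summed to 101 to 145 CPM in mycorrhizal wild type roots against 63.4 to 83.6 CPM in their controls, and their part in the results was not tested either. Marker genes of the root endodermis summed to 139.7 to 239 CPM over the 12 libraries. Replicate 3 of the *ram1* controls and replicate 1 of mycorrhizal *ram1* roots stood apart from their groups, with the largest differences among replicate pairs (a chi-square between 29.1 and 45.9 for each degree of freedom, against 6.995 to 21.6 for pairs without them). Whole roots were used, so a change in the number of cells of a type and a change in the RNA of each cell cannot be told apart. Whether *ram1-2* shares the background of W115 is not given in the sources used here, and a difference between the lines covers any other difference between them.

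Of the 163 members, 109 reached a mean of 10 reads in at least 1 group and were tested, and 54 were not, 25 of which had no read in any library. Of the tested members, 80 passed this filter in all 4 groups. Another 15 passed only in mycorrhizal groups, 8 of them only in mycorrhizal wild type roots. The untested genes comprised 22 beta-1,3-glucanases, 9 mannanases, 8 beta-glucosidases, 4 endoglucanases, 2 chitinases, 1 galactosidase and 8 of the 10 with another name or none.

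On the deposited RPKM scale, which accounts for transcript length, the 163 members summed to 5567 ± 857 (SD, n = 3) in wild type controls, 5359 ± 714 in mycorrhizal wild type, 6386 ± 495 in *ram1* controls and 4944 ± 659 in mycorrhizal *ram1*. Most of this came from few genes. The 3 with the highest mean RPKM, the beta-glucosidases Peaxi162Scf00427g00073.1 (1314 RPKM over the 12 libraries) and Peaxi162Scf00081g00049.1 (944 RPKM) and the basic beta-1,3-glucanase Peaxi162Scf00228g00020.1 (572 RPKM), made up 62.7% of the summed RPKM in wild type controls and 44.1% in mycorrhizal wild type roots. Chitinases summed to 77.5 ± 22.0 RPKM in wild type controls and 762 ± 52.4 RPKM in mycorrhizal wild type roots, that is 1.39% and 14.2% of the members' total, whereas in *ram1* they were at 85.4 ± 13.1 in controls and 119 ± 22.4 in mycorrhizal roots. The summed RPKM of beta-1,3-glucanases was 1416 ± 102 in wild type controls and 1016 ± 111 in mycorrhizal wild type roots, with no overlap between the libraries, and 1528 ± 260 and 1745 ± 163 in the *ram1* groups, which overlapped. These sums were not tested.

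The first comparison asks which of these genes respond to the fungus in the wild type. Of the 109 tested members, 28 passed edgeR's quasi-likelihood test at an adjusted p (Benjamini-Hochberg) below 0.05, 21 higher and 7 lower in mycorrhizal roots. This is 25.7% of them, beside 21.7% of all 22954 tested genes (12.6% higher and 9.14% lower). At least 2-fold changes were seen for 19 members upward and 4 downward, against 5.88% and 3.78% of all tested genes. The median log2 fold change of the tested members was -0.002, the same as over all tested genes. The higher genes were 8 chitinases, 7 beta-glucosidases, 2 endoglucanases, 2 mannan-degrading enzymes, 1 family 5 cellulase and 1 melibiase, and the lower genes were 6 beta-1,3-glucanases and 1 alpha-galactosidase. Differences between enzyme classes were not tested. Among the higher genes, 4 chitinases and 2 beta-glucosidases had passed the filter on low counts only in mycorrhizal wild type roots, where they were high. The number of lower genes fell to 3 without wild type control replicate 1 or mycorrhizal replicate 3 and to 4 without mycorrhizal replicate 1 or 2, while the number of higher genes was between 18 and 21 whichever library was left out.

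**Figure D1:**
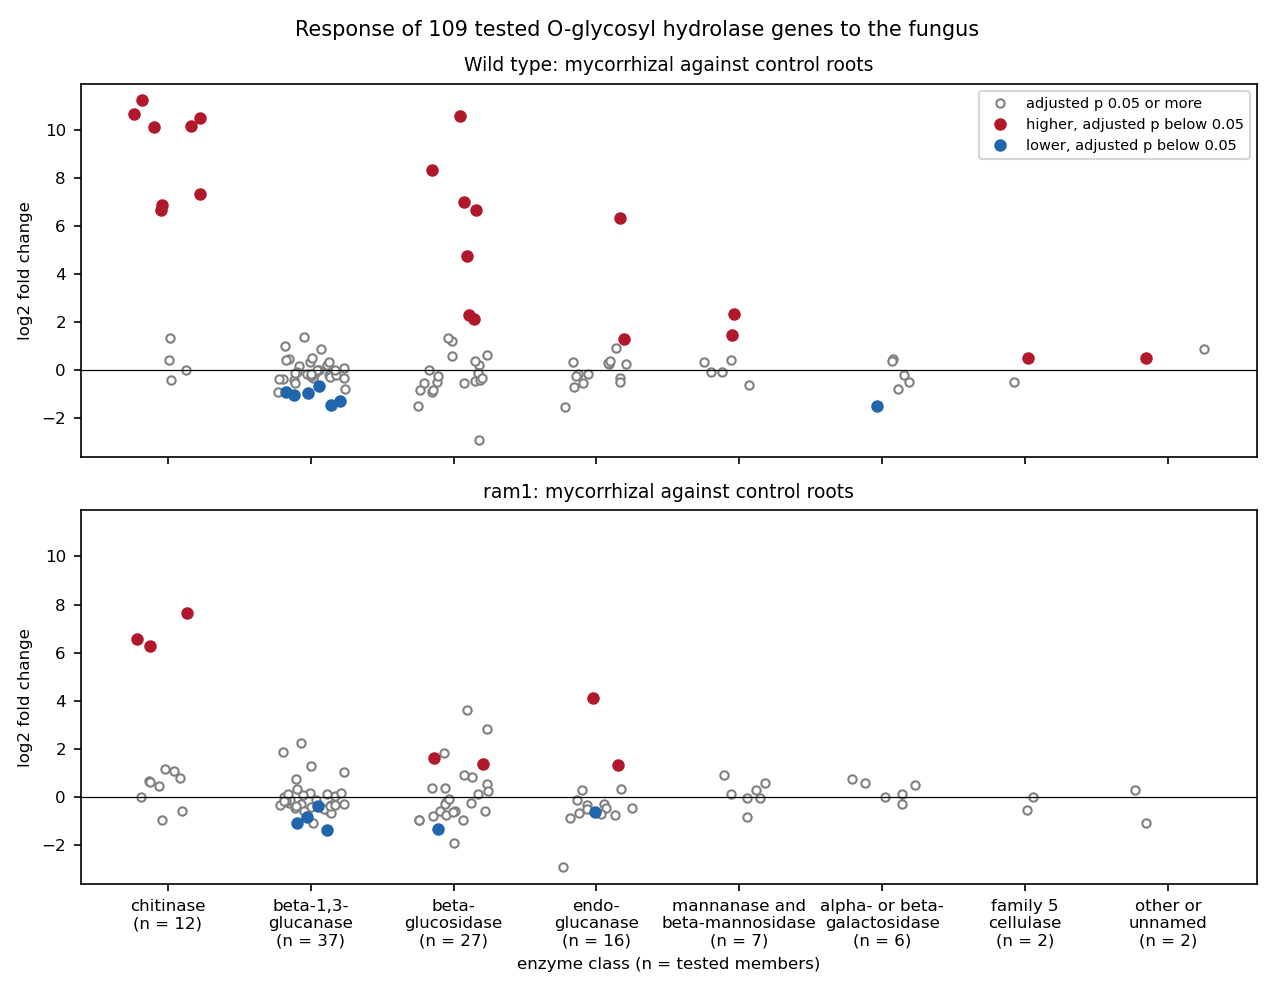
Log2 fold change between mycorrhizal and control roots for the 109 tested members by enzyme class, in the wild type (top) and in *ram1* (bottom). Each point is a gene, filled where edgeR's adjusted p was below 0.05 (red higher, blue lower). In the wild type 8 chitinases lie between 6.66 and 11.21, and the 6 called beta-1,3-glucanases lie below 0.

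Of 12 tested chitinases, 8 rose in mycorrhizal wild type roots, and the other 4 had log2 fold changes between -0.42 and 1.33 that did not pass the test. Because 5 of the 12 entered the test only through their reads in mycorrhizal wild type roots, this share is not one of all chitinases. Of these 5 genes 4 rose, and of the 7 that also passed the filter in another group 4 rose. This second count is not free of the filter either. Peaxi162Scf00616g00612.1, Peaxi162Scf00616g00611.1 and Peaxi162Scf00589g00225.1 passed in mycorrhizal *ram1* roots, where they were also high, and not in wild type controls. The highest level was reached by Peaxi162Scf00616g00612.1, described as chitinase 2, with 180.1, 202 and 199.9 CPM in mycorrhizal wild type roots. In wild type controls it had 1, 4 and 1 reads, or 0.0813, 0.335 and 0.0783 CPM. The increase was 1175-fold in mean CPM, a log2 fold change of 10.13 ± 0.39 (SE; edgeR, adjusted p = 2.025e-08).

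Its neighbour in the scaffold's gene numbering, Peaxi162Scf00616g00611.1, had 1, 1 and 0 reads in wild type controls and 963, 1164 and 1220 in mycorrhizal roots, a ratio of 1726 with a 95% counting interval of 477 to 14260.0. Peaxi162Scf00589g00225.1 went from 1, 0 and 0 reads to 1038, 907 and 1255, a ratio of 3300.0 with an interval of 592 to 130400.0. In both genes every mycorrhizal wild type library was far above every control library. An acidic endochitinase, Peaxi162Scf01254g00005.1, had 1, 1 and 0 reads in wild type controls and 1269, 1034 and 1402 reads, or 117, 86.7 and 107 CPM, in mycorrhizal wild type roots (ratio 1911, interval 529 to 15780.0). Their log2 fold changes were 10.49 ± 0.53, 11.21 ± 0.53 and 10.65 ± 0.37 (edgeR, adjusted p between 1.101e-08 and 1.214e-07). Intervals here cover counting error only.

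Of the other 4 chitinases that rose, Peaxi162Scf00411g00083.1 was at 0.244, 0.587 and 0.235 CPM in wild type controls and at 77.3, 51.6 and 47.0 CPM in mycorrhizal roots (log2 fold change 7.34 ± 0.31, edgeR, adjusted p = 3.485e-08). Peaxi162Scf00836g00035.1, Peaxi162Scf00836g00039.1 and Peaxi162Scf00836g00311.1 lie on the same scaffold. Peaxi162Scf00836g00039.1 had no read in 9 libraries and 153, 107 and 172 reads in the mycorrhizal wild type roots, at least 148.5-fold higher than a floor of 3 reads over the control group (edgeR, adjusted p = 0.0004057). For Peaxi162Scf00836g00035.1 and Peaxi162Scf00836g00311.1 only 7.99% and 12.0% of reads were unique to the gene model, so their reads cannot be assigned securely between near-identical copies, and the same holds for the low-level Peaxi162Scf03664g00001.1, chosen after its values were seen, which had no unique read. Both rose from under 1 CPM to 41.7 and 47.5 CPM on average in mycorrhizal wild type roots, and both passed the test in the wild type when unique reads were counted.

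Several chitinases behaved otherwise. The acidic endochitinases Peaxi162Scf00403g00840.1, chosen after its values were seen, and Peaxi162Scf00904g00048.1 were read at 14.0 to 30.2 and 32.5 to 56.3 CPM in wild type controls, and their log2 fold changes in the wild type were 0.41 ± 0.38 and -0.42 ± 0.32 (edgeR, adjusted p = 0.495 and 0.388), with overlapping groups. The latter had the highest RPKM of the class in control roots, with 53.8 for wild type plants and 60.3 for *ram1* plants. Peaxi162Scf01254g00009.1, on the scaffold of the induced acidic endochitinase and likewise chosen after its values were seen, had no read in any of the 6 wild type libraries and 4 to 28 reads in each of the 6 *ram1* libraries. All 7 tested chitinases whose annotation holds the domain IPR000677 (chitinase II) are described as chitinase 2. Of these 6 rose in the wild type, and 2 of 5 tested without it, where 12.6% of all tested genes rose. Both counts hold genes that passed the filter only where they were high, and copies with few unique reads are among the genes that rose. Whether the domain matters was not tested.

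In *ram1* 3 of the 12 tested chitinases rose, beside 4.91% of all tested genes. All 3 had passed the filter in mycorrhizal *ram1* roots, where they were high, so this share is not free of the filter. Peaxi162Scf00616g00612.1 went from 1, 0 and 2 reads in controls to 157, 141 and 231 in mycorrhizal roots, a ratio of 220.0 with a counting interval of 74.9 to 1070.0 (log2 fold change 7.64 ± 0.44, edgeR, adjusted p = 2.553e-06). Its level in mycorrhizal *ram1* roots, 12.2, 19.9 and 20.9 CPM, was below that of every mycorrhizal wild type library. Peaxi162Scf00616g00611.1 reached 10.6, 28.0 and 24.7 CPM and Peaxi162Scf00589g00225.1 reached 3.27, 7.78 and 6.79 CPM, both with no overlap with their controls (edgeR, adjusted p = 1.074e-05 and 6.169e-05). Against mycorrhizal wild type roots, the mean CPM in mycorrhizal *ram1* roots was 4.42-fold lower for Peaxi162Scf00616g00611.1, 11.0-fold lower for Peaxi162Scf00616g00612.1 and 15.0-fold lower for Peaxi162Scf00589g00225.1.

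None of the other induced chitinases passed the test in *ram1*. Peaxi162Scf01254g00005.1 had 0, 1 and 1 reads in *ram1* controls and 1, 0 and 2 reads in mycorrhizal *ram1* roots, and Peaxi162Scf00836g00039.1 had none in either. Peaxi162Scf00411g00083.1 was at 0.985, 0.770 and 1.11 CPM in *ram1* controls and at 1.40, 1.56 and 1.54 CPM in mycorrhizal *ram1* roots, without overlap, but the log2 fold change of 0.63 ± 0.32 did not pass the test (edgeR, adjusted p = 0.21). The difference between the responses of the lines (the response in *ram1* minus that in the wild type) was tested in the same model. Of the 12 tested chitinases 5 had a smaller response in *ram1* and none a larger one, beside 5.17% and 4.03% of all tested genes. At an unadjusted p below 0.05 the counts were 6 and 0, and with DESeq2 7 and 0. The filter limits these counts, because 5 of the 12 had passed it only in mycorrhizal wild type roots. Such an entry favoured a smaller response in *ram1*, so the share is not one of all chitinases.

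The largest of these differences with secure reads were -9.86 ± 1.77 for Peaxi162Scf01254g00005.1 (edgeR, adjusted p = 0.007397) and -6.71 ± 0.47 for Peaxi162Scf00411g00083.1 (edgeR, adjusted p = 1.539e-05) on the log2 scale. For Peaxi162Scf00836g00039.1, read in mycorrhizal wild type roots only, the test of the difference could not be used (edgeR, adjusted p = 1.00). The call of Peaxi162Scf01254g00005.1 was lost without *ram1* control replicate 2 (adjusted p = 0.0557). That of Peaxi162Scf00616g00611.1 (-4.21 ± 1.09, adjusted p = 0.0355) was lost when any of 8 libraries was left out, with adjusted p up to 0.11. That of Peaxi162Scf00836g00035.1 (-7.45 ± 2.07, adjusted p = 0.0478) was lost with unique reads (adjusted p = 1.00) and when any of 8 libraries was left out (adjusted p up to 0.337), and that of Peaxi162Scf00836g00311.1 (-6.21 ± 1.30, adjusted p = 0.0146) without *ram1* control replicate 1 (adjusted p = 0.123).

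**Figure D2:**
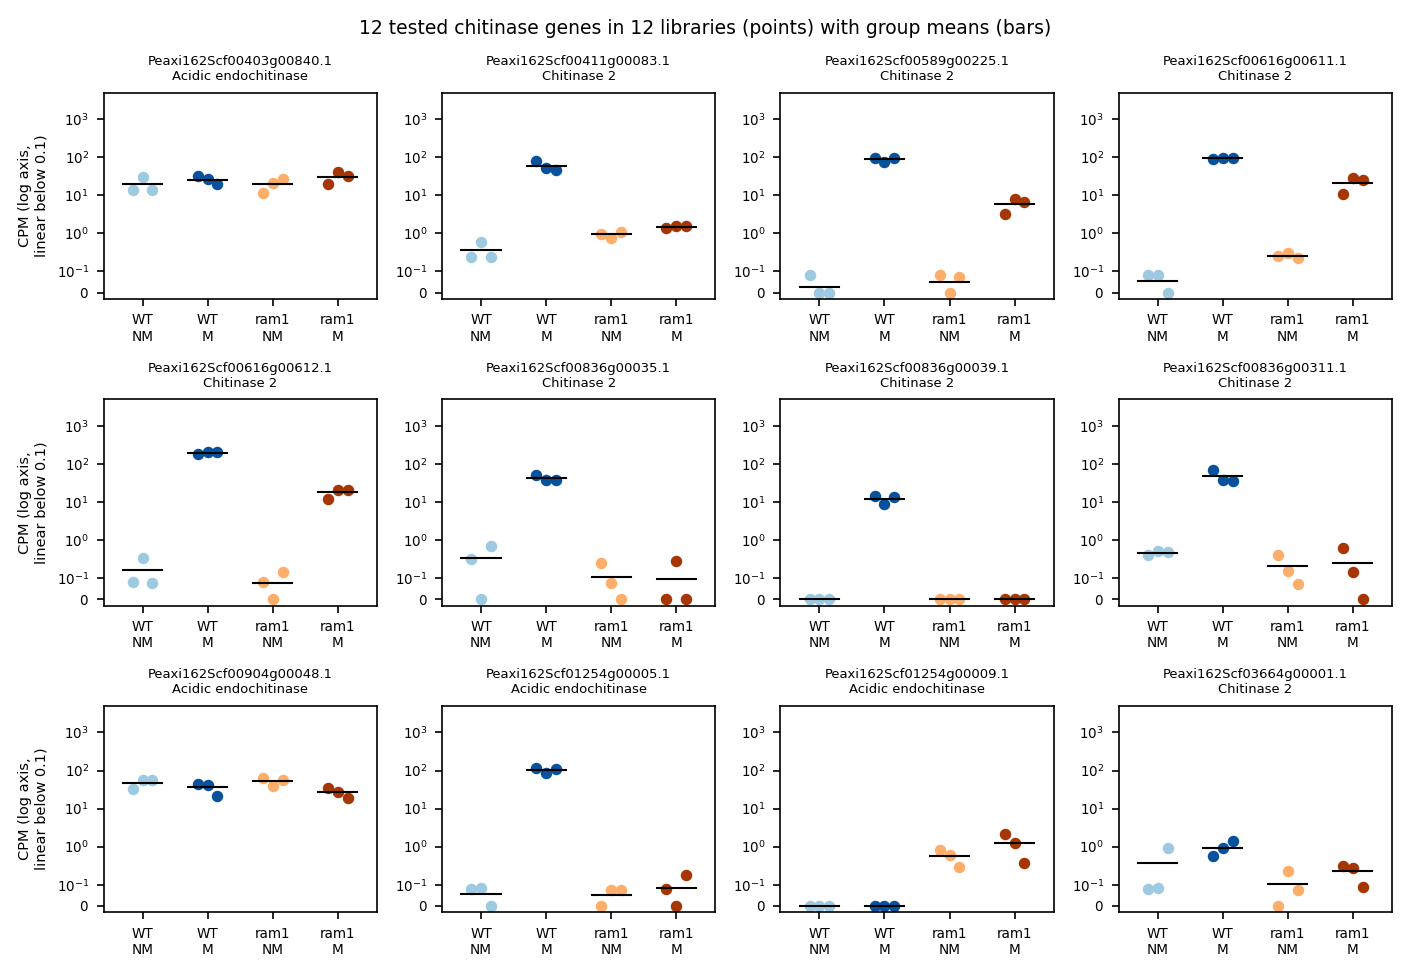
CPM of the 12 tested chitinases in each library (points) with the group mean (bar), for wild type (WT) and *ram1* control (NM) and mycorrhizal (M) roots, on a log axis that is linear below 0.1. For 8 genes the mycorrhizal wild type libraries lie at 8.97 to 202 CPM with every wild type control library below 1 CPM, and 3 of these genes also rise in *ram1*.

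Beta-glucosidases, which release glucose from cell wall oligosaccharides and from glucosides of small molecules, held both the most abundant members and a strongly induced minority. Of 27 tested genes, 7 rose in mycorrhizal wild type roots and none fell (at an unadjusted p below 0.05, 9 and 5; with DESeq2, 7 and 1). The share that rose was 25.9%, beside 12.6% of all tested genes. Of the 7, 2 had passed the filter only in mycorrhizal wild type roots. The largest change was that of Peaxi162Scf01116g00219.1 (beta glucosidase 17), with 2, 0 and 4 reads in wild type controls and 2761, 3365 and 3236 reads, or 254, 282.1 and 247 CPM, in mycorrhizal wild type roots. This is a 1647-fold increase in mean CPM (log2 fold change 10.56 ± 0.43, edgeR, adjusted p = 2.817e-08). In *ram1* the same gene was already read in controls, at 12.0, 7.55 and 10.0 CPM, and at 18.3, 32.3 and 26.5 CPM in mycorrhizal roots. The control and mycorrhizal libraries of *ram1* did not overlap (log2 fold change 1.37 ± 0.26, edgeR, adjusted p = 0.0133), but this call was lost without *ram1* control replicate 2 or mycorrhizal replicate 2 (adjusted p up to 0.0537).

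Peaxi162Scf00001g00471.1 (beta glucosidase 11) reached the highest CPM of the induced beta-glucosidases. It was at 5.69, 2.10 and 2.90 CPM in wild type controls and at 333, 386 and 362 CPM in mycorrhizal wild type roots, a 101-fold increase (log2 fold change 6.66 ± 0.42, edgeR, adjusted p = 8.296e-07). In *ram1* it rose from 20.4, 19.3 and 37.5 CPM to 55.1, 92.8 and 87.8 CPM (log2 fold change 1.61 ± 0.33, edgeR, adjusted p = 0.0183), a call lost without *ram1* control replicate 1 or 2 or mycorrhizal replicate 2 or 3 (adjusted p up to 0.077). The order of the 4 groups was thus the same for both genes, from wild type control through *ram1* control and *ram1* mycorrhizal to wild type mycorrhizal, with no overlap between neighbours. The response in *ram1* minus that in the wild type was -9.19 ± 0.51 on the log2 scale for Peaxi162Scf01116g00219.1 and -5.05 ± 0.50 for Peaxi162Scf00001g00471.1 (edgeR, adjusted p = 3.422e-06 and 0.0001914).

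On the same scaffold, Peaxi162Scf00001g04617.1 and Peaxi162Scf00001g04517.1, also described as beta glucosidase 11, had a different order. Peaxi162Scf00001g04617.1 rose in the wild type from 10.3, 7.29 and 8.07 to 33.5, 41.7 and 37.0 CPM (log2 fold change 2.12 ± 0.14, edgeR, adjusted p = 1.168e-06). In *ram1* it was above both wild type groups, at 79.8, 91.2 and 82.3 CPM in controls and 67.2, 79.5 and 72.2 CPM in mycorrhizal roots. Peaxi162Scf00001g04517.1 had 1, 0 and 2 reads in wild type controls and 19, 29 and 41 in mycorrhizal wild type roots, a ratio of 30.6 with a counting interval of 10.1 to 151. It was at 12.7, 18.7 and 15.5 CPM in *ram1* controls and at 16.4, 16.6 and 17.6 CPM in mycorrhizal *ram1* roots. Neither passed the test in *ram1* (log2 fold changes -0.21 ± 0.13 and 0.11 ± 0.23, edgeR, adjusted p = 0.292 and 0.782), and the responses of the lines differed by -2.34 ± 0.19 and -4.64 ± 0.54 (adjusted p = 4.661e-05 and 0.000586).

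The other 3 induced beta-glucosidases were at lower levels in *ram1* than in mycorrhizal wild type roots. Peaxi162Scf00140g01221.1 went from 0 to 3 reads in wild type controls to between 116 and 313 reads in mycorrhizal wild type roots, with 7, 3 and 14 reads in mycorrhizal *ram1* roots. Its difference between responses, -5.16 ± 1.18 (edgeR, adjusted p = 0.022), was lost when any of the 3 *ram1* control libraries was left out (adjusted p up to 0.0679). Peaxi162Scf00155g00069.1 rose from 16.7, 10.4 and 10.8 to 60.6, 48.3 and 74.1 CPM (log2 fold change 2.27 ± 0.29, edgeR, adjusted p = 0.0002427), and was at 14.2 to 19.1 CPM in mycorrhizal *ram1* roots. Peaxi162Scf00058g00614.1 had no read in wild type controls and 37, 51 and 31 in mycorrhizal wild type roots, at least 40.9-fold higher (edgeR, adjusted p = 0.0006403). The differences between the responses of these genes did not pass the test (-1.39 ± 0.41 with adjusted p = 0.0574, and -4.68 ± 2.63 with adjusted p = 0.297).

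**Figure D3:**
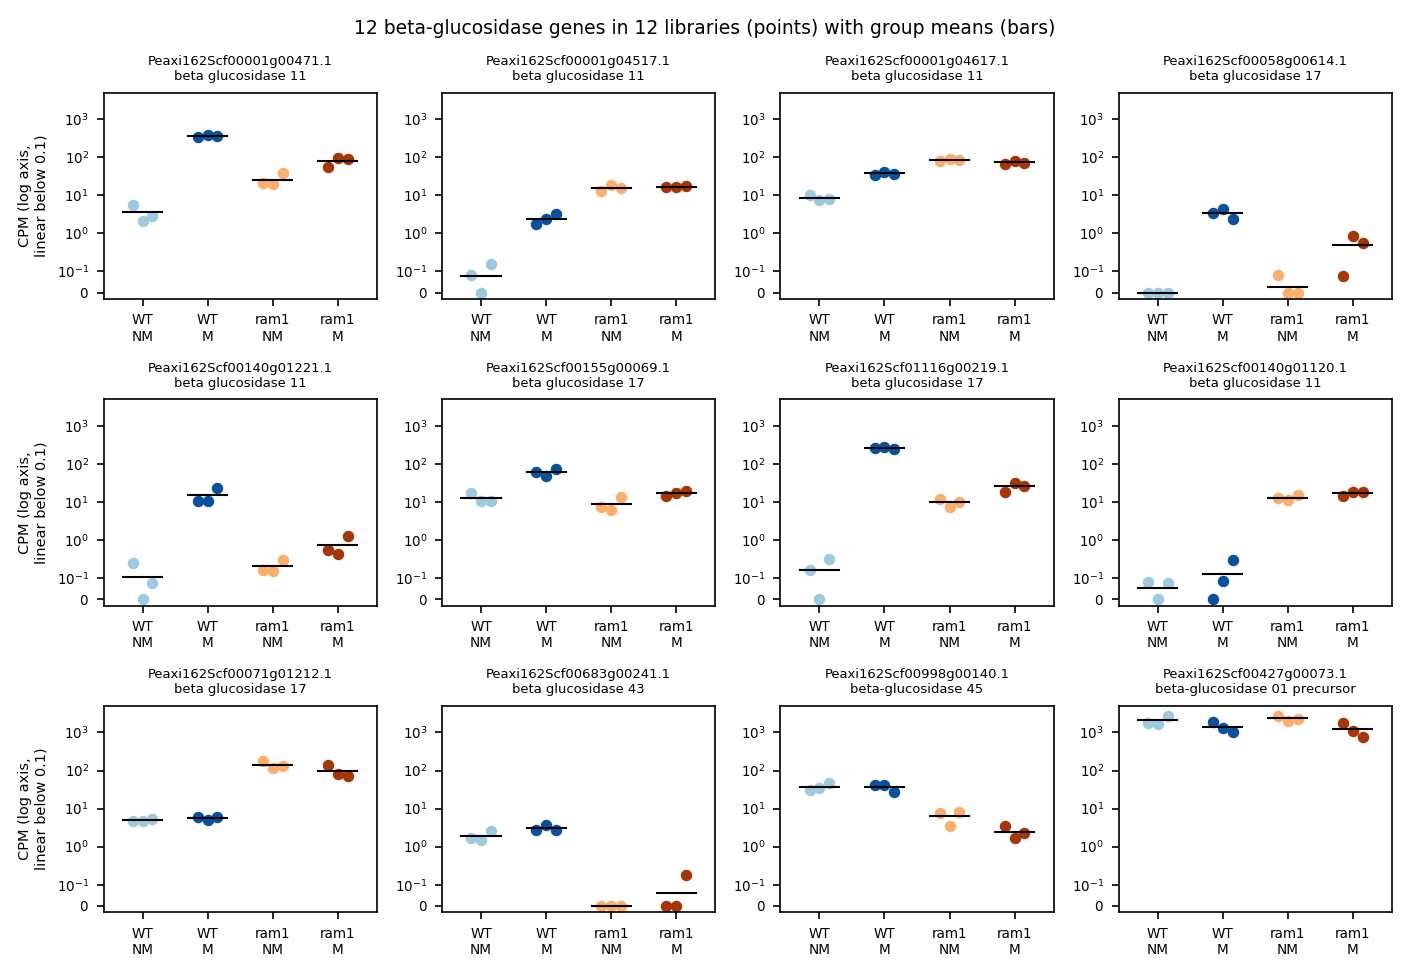
CPM of 12 beta-glucosidases in each library (points) with the group mean (bar), for wild type (WT) and *ram1* control (NM) and mycorrhizal (M) roots, on a log axis that is linear below 0.1. The first 7 panels are the genes that rose in mycorrhizal wild type roots, the next 4 are genes that differed between the lines in control roots, and the last is the most abundant member, at 782 to 2714 CPM.

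The most abundant beta-glucosidases did not pass the test in either line. Peaxi162Scf00427g00073.1, described after a tomato beta-glucosidase, was at 1820.0, 1658 and 2714 CPM in wild type controls and at 1912, 1292 and 1033 CPM in mycorrhizal wild type roots, with overlapping groups (log2 fold change -0.55 ± 0.32, edgeR, adjusted p = 0.257). In *ram1* it was at 2713, 2046 and 2301 CPM in controls and 1768, 1094 and 782 CPM in mycorrhizal roots, without overlap (log2 fold change -0.95 ± 0.32, adjusted p = 0.0789). Peaxi162Scf00081g00049.1 had log2 fold changes of -0.43 ± 0.25 in the wild type and -0.59 ± 0.26 in *ram1* (adjusted p = 0.263 and 0.151). Peaxi162Scf00998g00140.1 (beta-glucosidase 45) fell in *ram1* from 7.63, 3.54 and 7.94 to 3.42, 1.70 and 2.26 CPM (log2 fold change -1.32 ± 0.37, edgeR, adjusted p = 0.0462). That call was lost when any of 7 libraries was left out, with adjusted p up to 0.148. In Arabidopsis, beta-glucosidase 45 acts on glucosides of lignin precursors.

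Endoglucanases are family 9 enzymes that cut beta-1,4-glucan and take part in cellulose assembly and wall loosening. Of 16 tested genes 2 rose in mycorrhizal wild type roots and none fell (at an unadjusted p below 0.05, 3 and 1; with DESeq2, 2 and 0). The share that rose was 12.5%, beside 12.6% of all tested genes. Peaxi162Scf00263g00522.1 (endoglucanase 12) rose from 0.488, 0.419 and 1.02 CPM to 48.3, 51.7 and 57.6 CPM in the wild type and from 0.410, 0.462 and 0.519 to 5.29, 8.35 and 11.1 CPM in *ram1*. The 81.9-fold and 17.8-fold increases in mean CPM correspond to log2 fold changes of 6.32 ± 0.33 and 4.11 ± 0.35 (edgeR, adjusted p = 1.721e-07 and 4.624e-05), with no overlap between control and mycorrhizal libraries in either line. The difference between these responses was -2.21 ± 0.55 (edgeR, adjusted p = 0.0309), and it was lost when any of 8 libraries was left out, with adjusted p up to 0.0844. Peaxi162Scf00074g00023.1 (endoglucanase 1) rose in the wild type from 2.52, 3.35 and 4.46 to 9.22, 9.14 and 7.18 CPM (log2 fold change 1.30 ± 0.35, edgeR, adjusted p = 0.0219), a call lost without wild type replicate 1 or 2 of either treatment (adjusted p up to 0.0779).

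Peaxi162Scf00083g00717.1 (endoglucanase 24) had a pattern shared by no other member: no call in the wild type, a rise in *ram1* and a larger response in *ram1*. It was at 24.0, 20.3 and 15.1 CPM in wild type controls and 16.7, 17.3 and 19.6 CPM in mycorrhizal wild type roots, and at 8.54, 7.47 and 8.24 CPM in *ram1* controls and 18.2, 19.0 and 23.8 CPM in mycorrhizal *ram1* roots. Only the *ram1* controls were low, and they overlapped with none of the other groups. Its log2 fold change in *ram1* was 1.33 ± 0.17 (edgeR, adjusted p = 0.001357), and the response exceeded that of the wild type by 1.48 ± 0.24 (adjusted p = 0.004399). Peaxi162Scf00310g00710.1 (endoglucanase 8), chosen after its values were seen, had a smaller response in *ram1* (-0.84 ± 0.21, edgeR, adjusted p = 0.029) although neither line passed the test alone, with means of 6.31 and 8.06 CPM in the wild type and 13.8 and 9.82 CPM in *ram1*. The most abundant endoglucanases, Peaxi162Scf00885g00318.1 and Peaxi162Scf00071g00031.1, had log2 fold changes of -0.54 ± 0.26 and -0.34 ± 0.22 in the wild type and -0.89 ± 0.26 and -0.69 ± 0.22 in *ram1*, none of which passed the test.

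Among the enzymes of mannans, 2 of 7 tested genes rose in the wild type (28.6%, beside 12.6% of all tested genes). None fell, and both counts were the same at an unadjusted p below 0.05 and with DESeq2. Peaxi162Scf00037g00423.1 (beta-mannosidase B), which releases mannose from chain ends, rose from 24.2, 34.6 and 37.4 to 82.4, 90.5 and 90.2 CPM (log2 fold change 1.45 ± 0.15, edgeR, adjusted p = 6.135e-05). In *ram1* its groups overlapped, at 37.3 to 44.9 CPM in controls and 40.9 to 50.4 CPM in mycorrhizal roots, and the response differed from that of the wild type by -1.35 ± 0.22 (adjusted p = 0.003908). Peaxi162Scf00140g00212.1, an endo-beta-mannanase, rose from 2.76, 2.43 and 3.52 to 13.9, 13.3 and 16.4 CPM (log2 fold change 2.32 ± 0.34, edgeR, adjusted p = 0.0006853), and in *ram1* its groups overlapped at 1.34 to 4.62 CPM. The most abundant endo-beta-mannanase, Peaxi162Scf00132g00018.1, had log2 fold changes of -0.10 ± 0.12 and -0.06 ± 0.12 in the wild type and *ram1*.

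Galactosidases remove galactose from wall polymers and from oligosaccharides. The 6 tested genes named as such gave a single call in the responses to the fungus. Between the lines 2 of the 6 were called in control roots, beside 36.3% of all tested genes. In mycorrhizal roots 3 of the 6 were called, beside 52.7% of all tested genes. Peaxi162Scf00329g00410.1 (alpha-galactosidase 1) fell in the wild type from 2.68, 2.93 and 1.72 to 0.922, 0.838 and 0.840 CPM (log2 fold change -1.49 ± 0.43, edgeR, adjusted p = 0.03), a call lost without wild type control replicate 1 or 2 or any mycorrhizal wild type replicate (adjusted p up to 0.094). Every *ram1* library was at 0.311 CPM or less for this gene. The most abundant galactosidases, Peaxi162Scf00739g10014.1 and Peaxi162Scf00498g00314.1, did not pass the test in either line, and the latter was at 304 CPM in replicate 3 of the *ram1* controls against 67.4 and 88.7 CPM in the other replicates. A melibiase and a family 5 cellulase rose slightly in the wild type: Peaxi162Scf00128g00456.1 by 0.51 ± 0.15 and Peaxi162Scf00128g00541.1 by 0.49 ± 0.13 on the log2 scale (edgeR, adjusted p = 0.0311 and 0.0241), and each call was lost when any of 4 wild type libraries was left out (adjusted p up to 0.128). Peaxi162Scf01221g00031.1, a family 10 glycosyl hydrolase (a family with xylanases), passed neither response alone (log2 fold changes 0.86 ± 0.33 and -1.08 ± 0.35), but the responses differed by -1.94 ± 0.48 (edgeR, adjusted p = 0.0311), which was lost when any of 7 libraries was left out (adjusted p up to 0.0788).

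Beta-1,3-glucanases, the family 17 enzymes that degrade callose and can attack beta-1,3-glucans of fungal walls, were for the most part not called. Of 37 tested genes 31 did not pass the test in the wild type and 6 fell in mycorrhizal roots, which is 16.2% beside 9.14% of all tested genes. None rose, also at an unadjusted p below 0.05 and with DESeq2. The median log2 fold change was -0.20, with 12 positive and 25 negative values. The most abundant member of the class, Peaxi162Scf00228g00020.1 (basic isoform 2), was at 2708, 2346 and 3124 CPM in wild type controls and at 1306, 1945 and 1112 CPM in mycorrhizal wild type roots, without overlap (log2 fold change -0.91 ± 0.27, edgeR, adjusted p = 0.0328). In *ram1* it was at 1755, 2832 and 2903 CPM in controls and at 2570.0, 3521 and 2287 CPM in mycorrhizal roots, with overlap (log2 fold change 0.16 ± 0.27, adjusted p = 0.713). The difference between the responses, 1.07 ± 0.38, did not pass the test (adjusted p = 0.102). The wild type call was lost without replicate 1 or 3 of either wild type treatment (adjusted p up to 0.117).

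Peaxi162Scf00451g00323.1 (isoform B) was the sole beta-1,3-glucanase that passed the test of a difference between the responses of the lines. It fell in the wild type from 92.0, 77.4 and 63.8 to 28.2, 33.5 and 33.4 CPM (log2 fold change -1.29 ± 0.42, edgeR, adjusted p = 0.0482). In *ram1* it was at 84.9, 86.2 and 249.8 CPM in controls and at 196, 429 and 406 CPM in mycorrhizal roots (log2 fold change 1.29 ± 0.41, adjusted p = 0.0685). These *ram1* groups overlapped through replicate 3 of the controls and replicate 1 of the mycorrhizal roots, the libraries that stood apart. The difference between the responses was 2.58 ± 0.59 (edgeR, adjusted p = 0.0212). It was lost without wild type control replicate 1 or mycorrhizal wild type replicate 1 or 2 (adjusted p up to 0.0551), and the wild type call when any wild type library was left out, or *ram1* mycorrhizal replicate 2 or 3 (adjusted p up to 0.121).

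Peaxi162Scf00003g04834.1 (isoform 8) was the only member that fell in both lines, from 4.71, 7.04 and 6.58 to 2.30, 2.52 and 1.91 CPM in the wild type and from 10.2, 10.0 and 9.50 to 3.73, 5.24 and 2.44 CPM in *ram1*. The log2 fold changes were -1.45 ± 0.26 and -1.40 ± 0.25 (edgeR, adjusted p = 0.00249 and 0.0105), and the difference between them was 0.04 ± 0.35 (adjusted p = 0.968). Peaxi162Scf00487g00312.1 (isoform 13) fell from 26.7, 28.0 and 29.4 to 13.9, 16.6 and 12.6 CPM in the wild type and Peaxi162Scf00811g00453.1 from 12.1, 8.63 and 8.54 to 4.61, 5.03 and 4.73 CPM (edgeR, adjusted p = 0.006245 and 0.007523). Neither pair of groups overlapped, while the *ram1* groups of both genes did. The last of the 6, Peaxi162Scf00417g01021.1, chosen after its values were seen, fell by 0.67 on the log2 scale (adjusted p = 0.0414).

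In *ram1* 4 of the 37 tested beta-1,3-glucanases fell, 10.8% beside 5.17% of all tested genes, and none rose (at an unadjusted p below 0.05, 7 and 3; with DESeq2, 4 and 1). Beside Peaxi162Scf00003g04834.1 these were Peaxi162Scf00016g00836.1, Peaxi162Scf00117g00314.1 and Peaxi162Scf00217g00811.1, the last chosen after its values were seen, with log2 fold changes of -0.84 ± 0.23, -1.07 ± 0.30 and -0.37 ± 0.10 (edgeR, adjusted p = 0.0445, 0.0486 and 0.0477). The calls of the first and second of these were lost when any of 9 libraries was left out, with adjusted p up to 0.145 and 0.164. Of the 59 beta-1,3-glucanases, 32 carry the X8 domain (IPR012946), which binds callose in Arabidopsis. Among those tested, 4 of 23 with the domain and 2 of 14 without it fell in the wild type, where 9.14% of all tested genes fell. The second most abundant gene of the class, Peaxi162Scf00339g00086.1, was at 204 to 255 CPM in wild type controls and 219 to 262.6 CPM in mycorrhizal wild type roots (log2 fold change -0.002 ± 0.17).

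**Figure D4:**
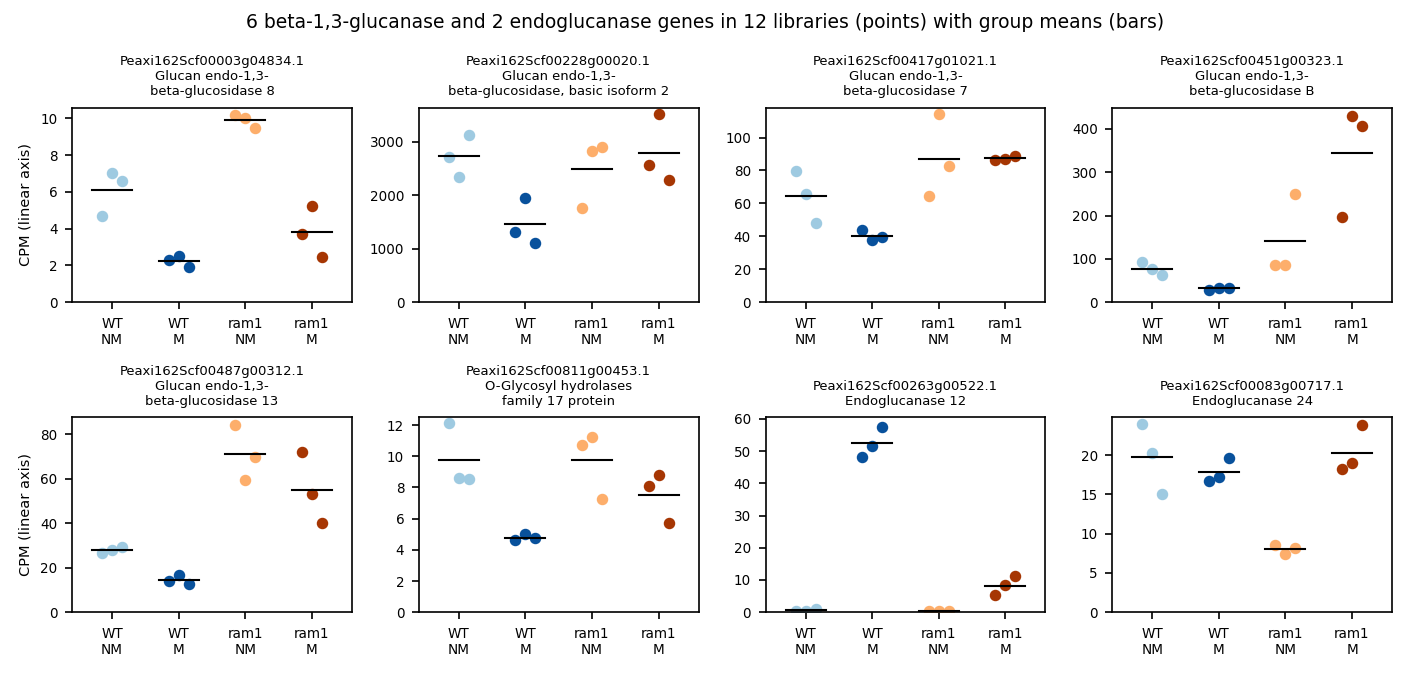
CPM of the 6 beta-1,3-glucanases that fell in mycorrhizal wild type roots and of 2 endoglucanases in each library (points) with the group mean (bar), for wild type (WT) and *ram1* control (NM) and mycorrhizal (M) roots, on linear axes that start at 0. In the first 6 panels the mycorrhizal wild type libraries lie below every wild type control library, and in the last panel only the *ram1* controls are low, at 7.47 to 8.54 CPM.

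The second comparison asks what remains of the response in *ram1*. There 13 of the 109 tested members passed the test, 7 higher and 6 lower, which is 11.9% beside 10.1% of all tested genes (4.91% higher and 5.17% lower). The higher genes were 3 chitinases, 2 beta-glucosidases and 2 endoglucanases, and the lower genes 4 beta-1,3-glucanases, 1 beta-glucosidase and Peaxi162Scf00438g00510.1 (endoglucanase 2; log2 fold change -0.65 ± 0.13, edgeR, adjusted p = 0.0148), chosen after its values were seen. Of the 7 members higher in *ram1* 6 were also higher in the wild type, with Peaxi162Scf00083g00717.1 as the exception, and of the 6 lower members 1 was also lower. Over all tested genes 490 of the 1126 higher in *ram1* (43.5%) and 256 of the 1187 lower (21.6%) were called the same way in the wild type, and no test set the members apart from these.

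The count in *ram1* rested on single libraries. It was 24 without *ram1* control replicate 3, 25 without mycorrhizal *ram1* replicate 1 and 38, 19 higher and 19 lower, without both, an alternative chosen after seeing the data. It fell to 8 without *ram1* control replicate 1 or 2 or mycorrhizal replicate 3, and to 7 without mycorrhizal replicate 2. The balance of directions turned as well, with 10 higher and 15 lower without mycorrhizal *ram1* replicate 1. DESeq2 gave 25 calls, 11 higher and 14 lower, and edgeR on the 6 *ram1* libraries alone gave 5, all higher. In the wild type 31 members were called without *ram1* control replicate 3 and mycorrhizal *ram1* replicate 1 together. The chitinases Peaxi162Scf00616g00611.1, Peaxi162Scf00616g00612.1 and Peaxi162Scf00589g00225.1 and the endoglucanases Peaxi162Scf00263g00522.1 and Peaxi162Scf00083g00717.1 passed in *ram1* under every alternative tried.

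The third comparison tests whether the response differs between the lines. It did for 16 of the 109 tested members, 14 with a smaller and 2 with a larger value in *ram1*. This is 14.7% beside 9.19% of all tested genes (5.17% smaller and 4.03% larger). Of the 109, 8 had passed the filter only in mycorrhizal wild type roots, which favoured a smaller response in *ram1*. The split of directions is therefore not free of the filter. By enzyme, 5 chitinases, 5 beta-glucosidases, 2 endoglucanases, beta-mannosidase B and the family 10 hydrolase had a smaller response, and endoglucanase 24 and the beta-1,3-glucanase Peaxi162Scf00451g00323.1 a larger one. The count was 10 without *ram1* control replicate 1 and 28 without *ram1* control replicate 3 and mycorrhizal replicate 1 together. The genes with a smaller response numbered 8 and 9 without *ram1* control replicate 1 or 2, and those with a larger response 7 without *ram1* control replicate 3 and 1 without wild type control replicate 1 or mycorrhizal wild type replicate 1 or 2.

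The lines also differed without the fungus. In control roots 38 of the 109 tested members passed the test, 27 higher and 11 lower in *ram1*, which is 34.9% beside 36.3% of all tested genes (18.8% higher and 17.5% lower). Beta-glucosidases made up 9 of the higher and 3 of the lower genes. Among the genes higher in *ram1*, large differences were found for Peaxi162Scf00140g01120.1 and Peaxi162Scf00001g04517.1, both described as beta glucosidase 11. Peaxi162Scf00140g01120.1 had 1, 0 and 1 reads in wild type controls and 153, 146 and 205 in *ram1* controls (ratio 241.3, counting interval 66.5 to 1998), and 0, 1 and 4 against 188, 127 and 201 reads in mycorrhizal roots. For Peaxi162Scf00001g04517.1 the ratio in control roots was 193.7, with an interval of 66.0 to 942. Neither gene's lines overlapped in either treatment (log2 differences in control roots 7.66 ± 0.50 and 7.42 ± 0.41, edgeR, adjusted p = 1.054e-06 and 3.278e-07).

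Peaxi162Scf00071g01212.1 (beta glucosidase 17) was at 4.69 to 5.25 CPM in wild type controls and 119 to 177 CPM in *ram1* controls, and at 5.03 to 6.11 and 70.3 to 136 CPM in the mycorrhizal roots of the lines (log2 difference in control roots 4.85 ± 0.27, edgeR, adjusted p = 3.666e-07). On the same scaffold, Peaxi162Scf00071g01143.1 was higher in *ram1* by 2.46 ± 0.23 in control roots and 2.42 ± 0.23 in mycorrhizal roots (edgeR, adjusted p = 1.454e-05 and 1.145e-05). In the other direction, Peaxi162Scf00683g00241.1 (beta glucosidase 43) had 21, 18 and 33 reads in wild type controls and none in *ram1* controls, at least 25.1-fold lower. Peaxi162Scf00998g00140.1 was at 29.9, 34.5 and 47.5 CPM in wild type controls and at 7.63, 3.54 and 7.94 CPM in *ram1* controls (log2 difference -2.55 ± 0.32, edgeR, adjusted p = 0.0001311). The beta-1,3-glucanase Peaxi162Scf00016g00836.1 had log2 differences between the lines of -1.66 ± 0.23 in control and -2.34 ± 0.23 in mycorrhizal roots (edgeR, adjusted p = 0.0002054 and 1.606e-05).

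In mycorrhizal roots 63 of the 109 tested members differed between the lines, 27 higher and 36 lower in *ram1*, which is 57.8% beside 52.7% of all tested genes (26.7% higher and 25.9% lower). Of the 12 tested chitinases, 8 were lower and 1 higher in *ram1*. Because 5 of the 12 had passed the filter only in mycorrhizal wild type roots, their entry favoured a lower level in *ram1*. This count is therefore not a share of all chitinases. The acidic endochitinase Peaxi162Scf01254g00005.1 was 1066-fold lower (counting interval 365 to 5173). The higher gene was Peaxi162Scf01254g00009.1 on the same scaffold, at least 15.8-fold higher. Among the 27 tested beta-glucosidases, 10 were higher and 11 lower in *ram1*, and among the 37 beta-1,3-glucanases 9 were higher and 5 lower. The basic beta-1,3-glucanase Peaxi162Scf00228g00020.1 was higher in mycorrhizal *ram1* than in mycorrhizal wild type roots by 0.94 ± 0.27 on the log2 scale (edgeR, adjusted p = 0.0124), a call lost without mycorrhizal wild type replicate 1 or *ram1* replicate 2 (adjusted p up to 0.0568).

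**Figure D5:**
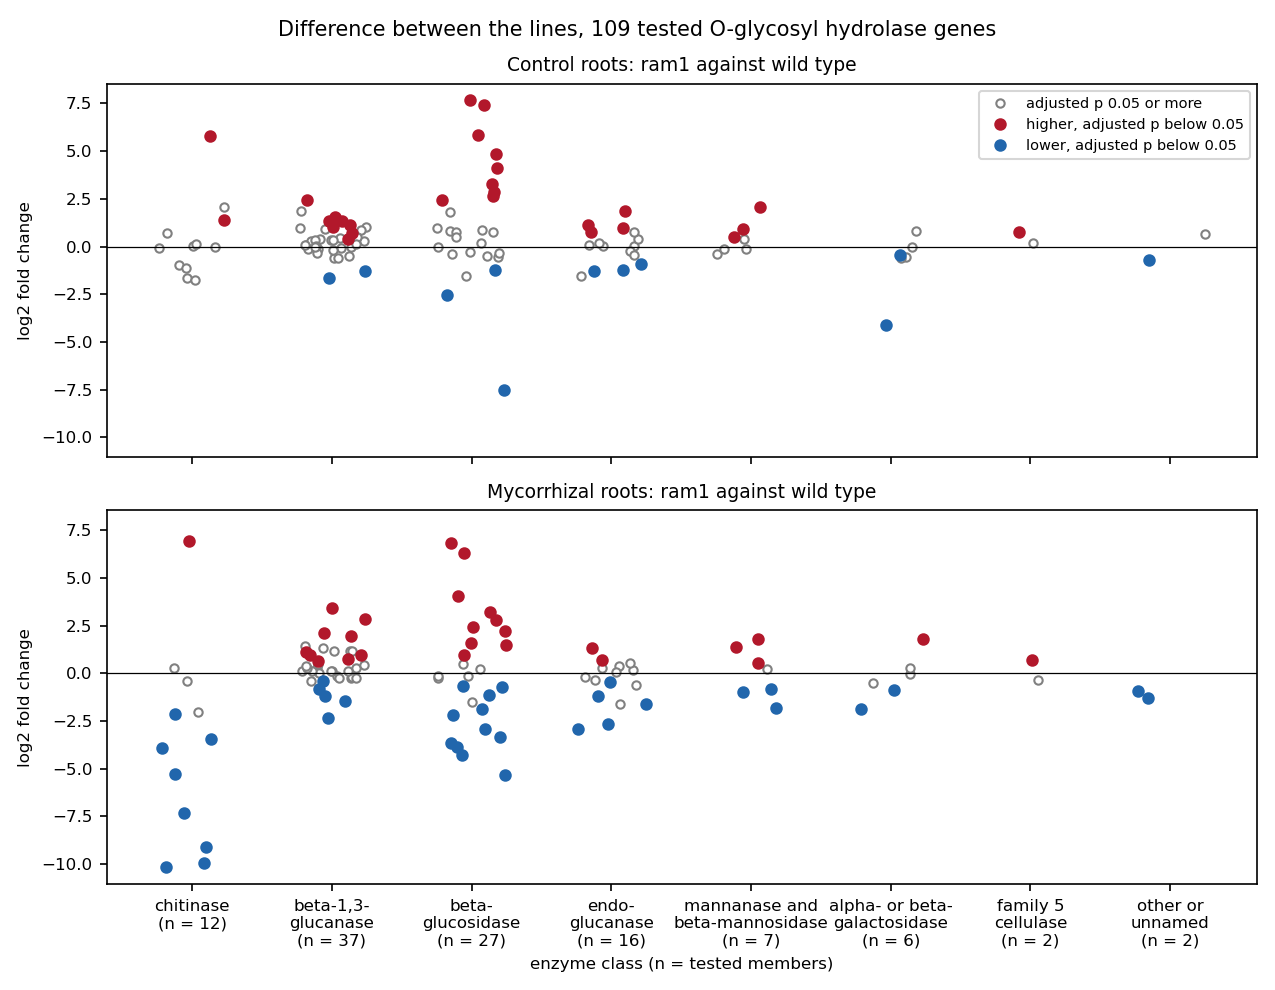
Log2 fold change of *ram1* against the wild type for the 109 tested members by enzyme class, in control roots (top) and mycorrhizal roots (bottom). Each point is a gene, filled where edgeR's adjusted p was below 0.05 (red higher in *ram1*, blue lower). In control roots 2 chitinases are called, both higher in *ram1*, and in mycorrhizal roots 8 are lower. Of the 12 tested chitinases 5 passed the filter only in mycorrhizal wild type roots.

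Members often sat close together: 81 of the 163 shared a scaffold with another member, on 26 of 108 scaffolds. Neighbours did not always share a pattern. On scaffold Peaxi162Scf00616 both chitinases rose in both lines and on Peaxi162Scf00836 all 3 rose in the wild type, while on Peaxi162Scf01254 an induced chitinase lies beside a gene read only in *ram1*, and of the 4 tested members on Peaxi162Scf00001 3 beta-glucosidases rose and an endoglucanase did not pass the test. For 97 of the 109 tested members at least 90% of reads were unique to the gene model, and for 7 fewer than 50% were, so that reads of those copies could have been split in the counting.

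Other genes of wall and chitin metabolism, outside the 163 members, gave the following calls in mycorrhizal wild type roots. Of 9 tested genes with a further chitin catabolism annotation, 4 rose and none fell with edgeR (1 lower at an unadjusted p below 0.05, 0 with DESeq2). Among the 4, Peaxi162Scf00347g00041.1 and Peaxi162Scf00347g00043.1 were at 168 ± 11.9 and 116 ± 4.32 CPM (SD, n = 3) in mycorrhizal wild type roots and below 1 CPM on average in each other group. Both these genes and Peaxi162Scf00177g00093.1, which also rose, passed the filter only in mycorrhizal wild type roots. The 4 of 9 is therefore not a share of all such genes. Of 10 tested beta-galactosidases with a lectin domain 2 rose, of 22 family 3 enzymes 2 rose and 3 fell, and of 33 xyloglucan endotransglucosylases 1 rose and 3 fell. Of 26 cellulose synthase genes 5 rose and 3 fell, and of 12 callose synthases, which make the substrate of beta-1,3-glucanases, 1 fell. None of 10 invertases passed edgeR's test (0 higher and 3 lower at an unadjusted p below 0.05, and 1 lower with DESeq2). These counts stand beside 12.6% higher and 9.14% lower over all tested genes. In *ram1*, where 4.91% of all tested genes were higher and 5.17% lower, 10 of the 33 xyloglucan endotransglucosylases fell and none rose with edgeR (1 higher at an unadjusted p below 0.05, 0 with DESeq2). The other lists gave 3 higher genes of chitin catabolism, 2 higher and 2 lower beta-galactosidases, 5 higher and 5 lower cellulose synthases, 2 lower family 3 enzymes, 1 lower invertase and no callose synthase (edgeR; 2 callose synthases higher at an unadjusted p below 0.05, 0 with DESeq2). No list was tested as a set.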

How the data were processed

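Per the study's methods, the authors trimmed reads for quality, aligned those of both lines to the *Petunia axillaris* v4 reference transcripts in CLC Genomics Workbench, and deposited total and unique counts per gene model (both reads of an intact pair were counted, and 1 read of a broken pair) and RPKM values for 12 libraries. Aligning *P. hybrida* reads to another species may lower counts of diverged genes. The deposited columns of fold changes and p-values hold the authors' own comparisons and were not used, and 0 columns of other samples were present. The last base of each transcript gave its length.

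Total gene counts were tested with edgeR 4.0.16 (R 4.3.3, limma 3.58.1; TMM factors, quasi-likelihood test, Benjamini-Hochberg adjustment over all tested genes) in 1 model of the 4 groups. Genes with a group mean of at least 10 reads in at least 1 group were tested. The 5 comparisons were mycorrhizal against control in each line, the difference between these responses, and *ram1* against wild type in each treatment. Called means an adjusted p below 0.05. Each edgeR SE was derived as the size of the log2 fold change divided by the square root of the test's F statistic. It was not estimated separately. The fitting was tested on simulated data. RPKM, as the authors deposited it, was used only for levels between genes and sums.

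Where a group had no read, folds were taken against 3 reads over the group, and with 1 to 3 reads an exact 95% counting interval is given. Both reads of a pair come from 1 molecule, and reads are not independent molecules, so the intervals cover counting error only and may be too narrow.

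Classes were read from the descriptions, with "." taken as a comma, and 3 genes named endo-1,4-beta-glucanase were added to the endoglucanases after the table was seen. Genes were named when called with a log2 fold change of at least 1 in size in either line or in the difference, when among the 5 smallest p in each direction between lines, when among the 2 with the highest mean RPKM of a class, or, in a list of other genes, when among up to 3 with the smallest p in the wild type response; *RAM1* was named too. Exceptions are marked. Members and lists were chosen with earlier results of these data known.

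Replicates are separate plants per the study's methods. Samples with the same replicate number did not deviate together (r from -0.23 to 0.36 over genes), so the numbers were not taken to pair the samples. Alternatives were DESeq2 1.42.0, its size factors, library totals, other filters, unique reads, each comparison's own libraries, a replicate block, each library left out and, added after seeing the data, 2 libraries left out together.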

Additional observations from a re-analysis of the deposited data

Results flagged for a closer look

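The response to the fungus differed between the lines for 16 members, by edgeR's test of the difference (*ram1* response minus wild type response, log2 scale, 3 replicates per group). Among chitinases the difference was -9.86 for Peaxi162Scf01254g00005.1, -7.45 for Peaxi162Scf00836g00035.1, -6.71 for Peaxi162Scf00411g00083.1, -6.21 for Peaxi162Scf00836g00311.1 and -4.21 for Peaxi162Scf00616g00611.1. Among beta-glucosidases it was -9.19 for Peaxi162Scf01116g00219.1, -5.16 for Peaxi162Scf00140g01221.1, -5.05 for Peaxi162Scf00001g00471.1, -4.64 for Peaxi162Scf00001g04517.1 and -2.34 for Peaxi162Scf00001g04617.1. For the last of these the *ram1* controls were already above the mycorrhizal wild type roots.

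Smaller responses in *ram1* were also found for the endoglucanases Peaxi162Scf00263g00522.1 (-2.21) and Peaxi162Scf00310g00710.1 (-0.84), the family 10 hydrolase Peaxi162Scf01221g00031.1 (-1.94) and beta-mannosidase B, Peaxi162Scf00037g00423.1 (-1.35). The response was larger in *ram1* for the beta-1,3-glucanase Peaxi162Scf00451g00323.1 (2.58) and the endoglucanase Peaxi162Scf00083g00717.1 (1.48).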

How the results depend on the processing

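None of the 108 named calls changed sign under the alternatives run. The count of lower members equalled or passed that of higher members in *ram1* with DESeq2, without mycorrhizal *ram1* replicate 1 (10 higher, 15 lower), without wild type control replicate 1 (7 and 8) and, at 7 each, with DESeq2's size factors, library totals, filterByExpr or unique reads. Of the named calls, 21 of 27 in the wild type, 5 of 11 in *ram1*, 7 of 15 for the difference between responses, 15 of 18 between lines in control roots and 30 of 37 in mycorrhizal roots passed under every alternative. With DESeq2, the *ram1* response gave 25 calls, 11 higher and 14 lower, and the difference between responses 4 larger values in *ram1*. With only the libraries of the comparison, 12 members were lower in the wild type, and *ram1* gave 5 calls, of which 0 were lower (edgeR; 22 lower at an unadjusted p below 0.05). Without *ram1* control replicate 3 and mycorrhizal *ram1* replicate 1, *ram1* gave 38 calls, 19 higher and 19 lower, and the difference between responses 28 calls, 8 larger in *ram1*. The cause was not tested.

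Leaving out 1 library at a time, the wild type gave 21 to 30 calls (18 to 21 higher, 3 to 9 lower), *ram1* 7 to 25 (5 to 16 higher, 2 to 15 lower), the difference between responses 10 to 20 (1 to 7 larger, 8 to 16 smaller), the lines in control roots 28 to 38 (19 to 27 higher, 9 to 13 lower) and in mycorrhizal roots 52 to 65 (21 to 28 higher, 30 to 38 lower). With the replicate number as a block, 28, 12, 14, 36 and 61 members were called in these comparisons, and 5 of 108 named calls were lost. Differences of genes with few reads in a group had wide errors at this depth.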
